A study of Mus musculus with 12 samples.

Results

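The genes described here are 44 genes of the cell cycle, found by symbol among the 27998 genes measured in single cells of the mouse mammary gland. All 44 symbols had a row in each of the 12 libraries. The libraries came from female C57BL/6J mice of 43 weeks, 1 library per group, prepared from the fourth mammary glands with the lymph nodes removed, digested to single cells and cleared of dead cells. How many mice went into a library was not given in the sources used here. The question put to these genes was which cells of the gland were cycling, and whether that changed with ovarian hormones or with polybrominated diphenyl ethers (PBDEs, flame retardants).

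In 11 of the 12 groups the mice had received 4-vinylcyclohexene diepoxide (VCD, which destroys ovarian follicles and so models menopause) at 160 mg/kg/day for 15 days. The group Intact had not. In the final week mice were given sesame oil alone (VCD_Vehicle), estradiol (E2) at 1 µg per animal per day (VCD_E2), or E2 with progesterone (P4) at 1 mg per animal per day (VCD_E2_P4). The same 3 hormone states were crossed with 2 diets of PBDE-47, PBDE-100 and PBDE-153. The low diet began 100 days after VCD onset and gave 0.05, 0.0028 and 0.0063 mg/kg/day for 20 weeks (VCD_Low_PBDE, VCD_Low_E2, VCD_Low_E2_P4), and the high diet gave 1, 0.056 and 0.126 mg/kg/day for the last 1 week of that time (VCD_High_PBDE, VCD_High_PBDE_E2, VCD_High_PBDE_E2_P4), so PBDE dose and length of exposure cannot be told apart. Groups without PBDE ate a matched diet with the solvent. The remaining groups were VCD_E2_ICI, in which 5 mg of the estrogen receptor antagonist ICI was given once as E2 began, and VCD_Vehicle_NormEnv, whose label gives no more. The tests used the 9 crossed libraries, in which libraries of other PBDE levels or hormone states stand in for replicates, so p-values measure the spread between these libraries. Intact, VCD_E2_ICI and VCD_Vehicle_NormEnv are described without a test.

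A cell that commits to division passes from G1 into S phase, when DNA is copied, and then through G2 into mitosis. Cyclin-dependent kinases drive these steps, and many of the genes are transcribed only in cycling cells, in an early wave under E2F factors and in a late wave whose promoters hold a CHR element. In the adult mammary gland, E2 and P4 are known to drive the epithelium through the cycle, and immune cells divide when they are activated. The 44 genes were grouped here into 8 roles. The role names are labels for grouping and do not give the step at which each gene acts. The licensing and fork group (12) holds genes that load and run the DNA helicase, together with Pcna, Uhrf1, Ccne1 and Ccne2. A further 4 genes supply nucleotides. These 16 are called the G1/S and S genes below. The 24 mitotic genes are the cyclins and kinase Cdk1 (4), the mitotic kinases and checkpoint (7), the kinetochore (3), the spindle and cytokinesis (7) and mitotic exit (3). The last 4, grouped as chromatin and other, are Mki67, which encodes the proliferation antigen Ki-67, Top2a, the topoisomerase that untangles DNA, Stmn1, a microtubule destabiliser, and Hmgb2, a chromatin protein.

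RefSeq gave a promoter window of 300 bases on GRCm38.p6 for 36 of the 44 genes. Motifs were searched on both strands, CHR as TTTGAA or TTCGAA, E2F as TTTCGCGC or TTTGGCGC, and the CCAAT box as CCAAT. A CHR was found in 16 of 20 mitotic genes (80.0%), against 21.7% of all 27025 genes with a window. An E2F motif was found in 6 of 13 G1/S and S genes (46.2%), against 0.929% of all genes and in 1 of the 20 mitotic genes, Cdk1. A CCAAT box was found in 30 of the 36 (83.3%), against 41.1% of all genes. Such matches are descriptions and not tested sites. The 4 windows printed show both kinds of promoter among genes whose levels are given below, with the motifs in capitals. Cdk1, the kinase of mitotic entry, lies at chr10:69352863-69353162 (minus strand), Ccnb2, which encodes cyclin B2, at chr9:70421505-70421804 (minus), Bub1, a spindle checkpoint kinase, at chr2:127831810-127832109 (minus), and Mcm5, a helicase subunit, at chr8:75109259-75109558 (plus).
Cdk1: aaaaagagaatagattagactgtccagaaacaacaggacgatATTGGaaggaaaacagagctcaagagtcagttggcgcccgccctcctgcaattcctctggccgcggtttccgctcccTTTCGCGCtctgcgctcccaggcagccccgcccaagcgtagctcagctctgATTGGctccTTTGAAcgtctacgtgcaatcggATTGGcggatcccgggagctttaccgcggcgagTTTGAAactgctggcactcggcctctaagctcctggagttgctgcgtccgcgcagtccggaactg
Ccnb2: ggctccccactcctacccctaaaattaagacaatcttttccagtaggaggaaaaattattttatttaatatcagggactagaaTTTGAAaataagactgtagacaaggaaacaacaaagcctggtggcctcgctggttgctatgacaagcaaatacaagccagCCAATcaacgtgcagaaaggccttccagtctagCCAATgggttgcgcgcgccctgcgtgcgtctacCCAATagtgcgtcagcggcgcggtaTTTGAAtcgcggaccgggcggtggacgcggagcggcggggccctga
Bub1: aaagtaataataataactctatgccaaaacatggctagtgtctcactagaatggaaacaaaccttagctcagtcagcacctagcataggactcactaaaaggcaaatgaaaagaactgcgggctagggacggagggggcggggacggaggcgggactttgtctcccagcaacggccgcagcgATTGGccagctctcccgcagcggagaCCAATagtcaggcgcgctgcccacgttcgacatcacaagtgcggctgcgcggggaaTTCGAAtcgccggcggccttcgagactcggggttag
Mcm5: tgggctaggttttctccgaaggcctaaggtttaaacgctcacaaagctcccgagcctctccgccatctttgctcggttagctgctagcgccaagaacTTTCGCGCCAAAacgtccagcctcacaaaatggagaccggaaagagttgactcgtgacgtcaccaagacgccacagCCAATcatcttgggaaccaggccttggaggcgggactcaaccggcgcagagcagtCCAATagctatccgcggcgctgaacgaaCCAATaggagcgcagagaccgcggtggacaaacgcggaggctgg
In the Mcm5 window 2 E2F motifs overlap, 1 on each strand, and make a single run of capitals.

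The libraries held 58620 cell barcodes, of which 46257 passed the filters, with 41737881 to 109224969 unique molecule counts (UMIs) per library. VCD_Low_E2_P4 stood apart, with 10006 barcodes and 1033 cells that passed the marker gates of more than 1 cell type, against 63 to 170 in the others. Some libraries shared barcode sequences, 95 to 185 in each pair of the 5 libraries with the file-name suffix X3SC3 (Intact, VCD_Vehicle, VCD_E2, VCD_E2_P4 and VCD_Low_PBDE), 2 to 84 within the 7 with XCSCR and 1 to 20 across them, and 885 cells that passed carried one. Marker gates gave 36589 fibroblasts, 6969 immune cells and 174 epithelial cells. Fibroblasts held a UMI of Col1a1 in 99.5% of cells, but 52.0% of cells outside the gate did too, so a UMI of it does not by itself mark a fibroblast. Ptprc was detected in 92.5% of the immune cells against 6.76% of other cells. The epithelial gate took mostly luminal cells (Krt8 in 96.6%, Krt14 in 8.62%). A cell was counted as positive when it held at least 2 UMIs of Mki67 and Top2a together, which 1119 cells did.

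With each of the 12 libraries weighted equally, positive cells made up a mean of 14.8% of dendritic cells (6.52% to 25.0% across libraries), 13.2% of B cells (0% to 33.3%), 9.13% of T cells (5.41% to 16.1%), 8.91% of epithelial cells (0% to 45.5%), 6.80% of NK and innate lymphoid cells (2.44% to 12.2%) and 5.19% of macrophages (1.15% to 9.82%). The fewest cells in any library were 14 dendritic, 6 B, 68 T, 2 epithelial, 20 NK and innate lymphoid cells and 42 macrophages. Some ends of these ranges therefore rest on few cells. The ranges of these 6 classes overlapped, and the order of their means was not tested. The mean was 8.69% over all immune cells (5.89% to 15.0%) and 0.746% over fibroblasts (0.0759% to 1.82%), and the lowest immune library lay above the highest fibroblast library. No neutrophil was positive (0 of 250, which allows a share of up to 1.20%, taken as 3 cells of the total here and wherever a count of 0 is given such a limit), nor any endothelial cell (0 of 103, up to 2.91%) or mural cell (0 of 66, up to 4.55%). The median neutrophil held 2851.5 UMIs and the median endothelial cell 8364, and such limits cover counting error only. These limits lie above the pooled fibroblast share of 0.817% (299 of 36589) and so set no usable background for it.

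In fibroblasts, the cells that make the gland's connective tissue, positive cells were rare without hormone and more frequent in each of the 6 crossed libraries given E2. The share was 0.0934% in VCD_Vehicle (3 of 3212), 0.172% in VCD_Low_PBDE (7 of 4081) and 0.0759% in VCD_High_PBDE (2 of 2636). With E2 alone it was 1.82% in VCD_E2 (51 of 2797), 1.41% in VCD_Low_E2 (43 of 3058) and 0.687% in VCD_High_PBDE_E2 (15 of 2182). With E2 and P4 it was 1.67% in VCD_E2_P4 (53 of 3175), 1.72% in VCD_Low_E2_P4 (98 of 5713) and 0.818% in VCD_High_PBDE_E2_P4 (13 of 1589). The 6 hormone libraries lay above the 3 without hormone, with no overlap. The libraries outside the crossed layout lay at the lower level, with 0.170% in Intact (5 of 2944), 0.229% in VCD_Vehicle_NormEnv (7 of 3054) and 0.0931% in VCD_E2_ICI (2 of 2148). Without the cells whose barcode sequence was also found in another library, VCD_E2 fell to 1.25% (34 of 2728), VCD_Low_E2 to 1.23% (37 of 3011), VCD_E2_P4 to 1.57% (49 of 3121) and Intact to 0.0693% (2 of 2885), and the 6 hormone libraries still lay above the 3 without hormone.

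**Figure D1:**
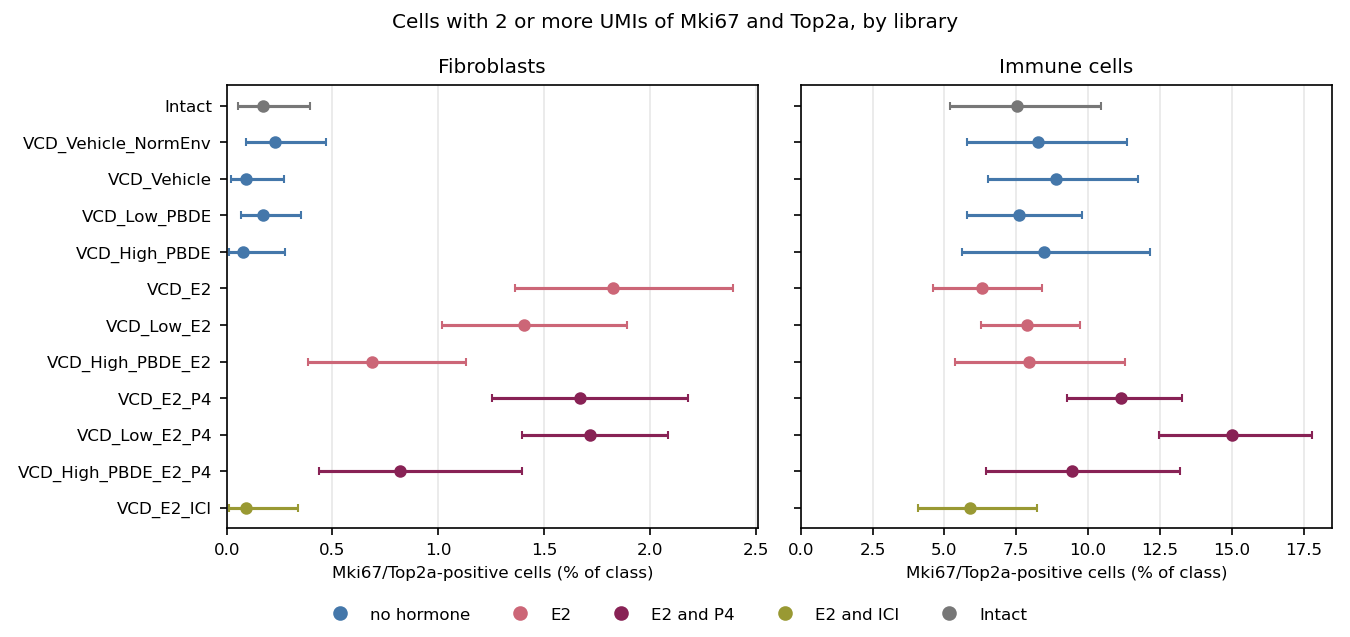
Percent of cells with at least 2 UMIs of Mki67 and Top2a together, per library, in fibroblasts and in immune cells. Points are libraries and bars are exact 95% intervals for counting error. In fibroblasts the 6 crossed libraries with E2 lie between 0.687% and 1.82%, above the 3 without hormone, whereas in immune cells the ranges overlap.

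The mean share in fibroblasts was 1.35% with E2 (E2 alone and E2 with P4 averaged) and 0.114% without. The difference was 1.24 percentage points (SD 0.505 over the 3 PBDE levels, higher in 3 of 3). An exact two-sided permutation test within PBDE level gave p = 0.037, the smallest the 27 arrangements allow. Over the 13 cell classes tested in this way, some of which lie within others, the Benjamini-Hochberg adjusted p was 0.161. The share alone does not pass after adjustment. With a smallest p of 0.037 it could pass only if most of the 13 classes reached that p, so the adjustment cannot decide here. When every cell was thinned to 5000 UMIs and counted at 1 or more UMIs of the 2 genes, leaving out 2800 shallower fibroblasts, the difference was 1.18 points (exact permutation p = 0.037), and without the shared barcodes it was 1.10 points. Adding P4 to E2 changed the share by 0.0953 points on average (higher in 2 of 3 PBDE levels, exact p = 0.75, where 3 pairs allow no p under 0.25). The low diet changed it by -0.0977 points (exact p = 1.0), and the high diet by -0.668 points, lower in 3 of 3 hormone states (exact p = 0.25). The 3 crossed libraries without PBDE carried the suffix X3SC3 and the 3 of the high diet XCSCR, so in this comparison diet and suffix cannot be told apart, and of the low diet only VCD_Low_PBDE carried X3SC3. Without the shared barcodes these 3 values became 0.321, 0.0753 and -0.434 points, so that of the low diet changed sign.

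Fibroblast RNA was then summed per library and tested across 15152 genes. A sum cannot tell a larger share of cycling cells from more RNA per cycling cell, so the shares above stand beside it. With E2, 38 of the 44 genes passed an adjusted p of 0.05 (edgeR, quasi-likelihood), 37 higher and 1 lower, while 19.4% of all genes tested were called in either direction and 9.97% as higher. The median log2 fold change of the 44 was 2.06, against -0.02 for all genes. All 24 mitotic genes rose, with log2 fold changes from 1.24 to 4.08 (median 2.86). With the file-name suffix as a term 33 of the 38 calls remained, and Aurka, Bub1b, Cenpf, Ccne2 and Hmgb2 lost theirs (edgeR adjusted p from 0.051 to 0.10), as they also did without VCD_Low_PBDE, the only library that the suffix sets apart within a PBDE level. Of the 16 G1/S and S genes 9 rose and 1 fell (median 0.72), and all 4 of the chromatin group rose.

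Levels are given as CPM, the UMIs of a gene scaled to a common total of all UMIs in the summed cells, for 1 gene across libraries. Mki67 stood at 0.353, 0.645 and 0.577 CPM in VCD_Vehicle, VCD_Low_PBDE and VCD_High_PBDE. In the 6 hormone libraries it ranged from 3.82 to 8.33 (median 7.67), with 8.33 in VCD_E2, 3.82 in VCD_High_PBDE_E2 and 3.87 in VCD_High_PBDE_E2_P4. When the shared barcodes were left out, VCD_E2 held 3.44 CPM of Mki67 (and 4.32 of Top2a and 2.76 of Cdk1), with Mki67 then below both high PBDE libraries (3.90 and 3.93), and the 6 libraries (3.44 to 8.38) still lay above the 3 without hormone (0.359 to 0.639). Its log2 fold change was 3.57 ± 0.27 (SE, edgeR adjusted p = 0.00129). Top2a stood at 0.831, 0.836 and 1.15 CPM without hormone and at 7.95 to 12.5 with it (median 10.3), a log2 fold change of 3.42 ± 0.18 (edgeR adjusted p = 0.000463). For neither gene did the crossed libraries with hormone overlap those without. Stmn1 rose from 5.81 to 7.11 CPM up to 22.3 to 39.2 (log2 fold change 2.16), and Hmgb2 from 38.2 to 42.1 up to 44.2 to 59.1 (0.33, edgeR adjusted p = 0.0256). The call of Hmgb2 was lost in 6 of the 9 fits that left out 1 library.

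Among the mitotic cyclins and their kinase, Cdk1 showed the smallest adjusted p of the 44. It stood at 0.519, 0.528 and 0.315 CPM without hormone (VCD_Vehicle, low, high), and at 6.46 to 10.0 with it (median 7.58), with the log2 fold change at 4.03 ± 0.13 (edgeR adjusted p = 9.2e-05). Ccnb1, which encodes cyclin B1, went from 0.0623 to 0.551 up to 2.39 to 4.47 CPM (log2 fold change 3.67), and Ccnb2 from 0.968 to 1.21 up to 2.90 to 8.91 (2.39). Ccna2, which encodes cyclin A2, rose by 2.92. For the checkpoint kinase Bub1 the level was 0.083, 0.0147 and 0.0525 CPM in VCD_Vehicle, VCD_Low_PBDE and VCD_High_PBDE, and 0.583 to 1.03 with hormone, so its log2 fold change of 4.08 ± 0.43 rests on few UMIs without hormone. Aurkb, the kinase of the chromosomal passenger complex, rose by a log2 fold change of 3.38, and its partners Birc5 (survivin) and Cdca8 (borealin) by 3.01 and 2.63. The mitotic kinases Plk1 and Aurka rose by 1.96 and 1.92, and the checkpoint gene Bub1b by 1.60. Without hormone Birc5 ranged from 0.675 to 1.15 CPM, and with it from 5.15 to 8.83.

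The other mitotic roles moved in the same direction. Of the kinetochore genes, Cenpa, the centromeric histone, went from 2.60 to 2.74 CPM up to 6.90 to 12.04 (log2 fold change 1.80), and Cenpf from 0.291 to 1.02 up to 2.13 to 6.68 (2.97). The kinetochore motor Cenpe rose by 2.18. Of the spindle and cytokinesis genes, Hmmr rose by a log2 fold change of 3.20, the cytokinesis kinesin Kif23 by 3.16, the spindle midzone organiser Prc1 by 2.80 and the microtubule binder Nusap1 by 1.24, the smallest rise of the 24. The spindle assembly factor Tpx2 rose by 3.02, and the kinesins Kif20a and Kif11 by 2.44 and 1.505. Of the genes grouped under mitotic exit, Ube2c went from 0.914 to 1.63 CPM up to 7.41 to 14.9 (log2 fold change 3.00). It encodes a ubiquitin-conjugating enzyme of the anaphase-promoting complex. Cdc20, an activator of that complex, rose by 1.95. Cdca3, placed in the same group, went from 0.291 to 0.577 CPM up to 3.03 to 5.94 (3.46). Summed over the 24 mitotic genes, the level was 15.2 to 20.1 CPM without hormone and 72.2 to 126.6 with it, 5.99-fold higher by the means. This sum and the log2 fold changes with E2 in fibroblasts include the cells with shared barcodes. Their sizes without those cells are not given here.

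**Figure D2:**
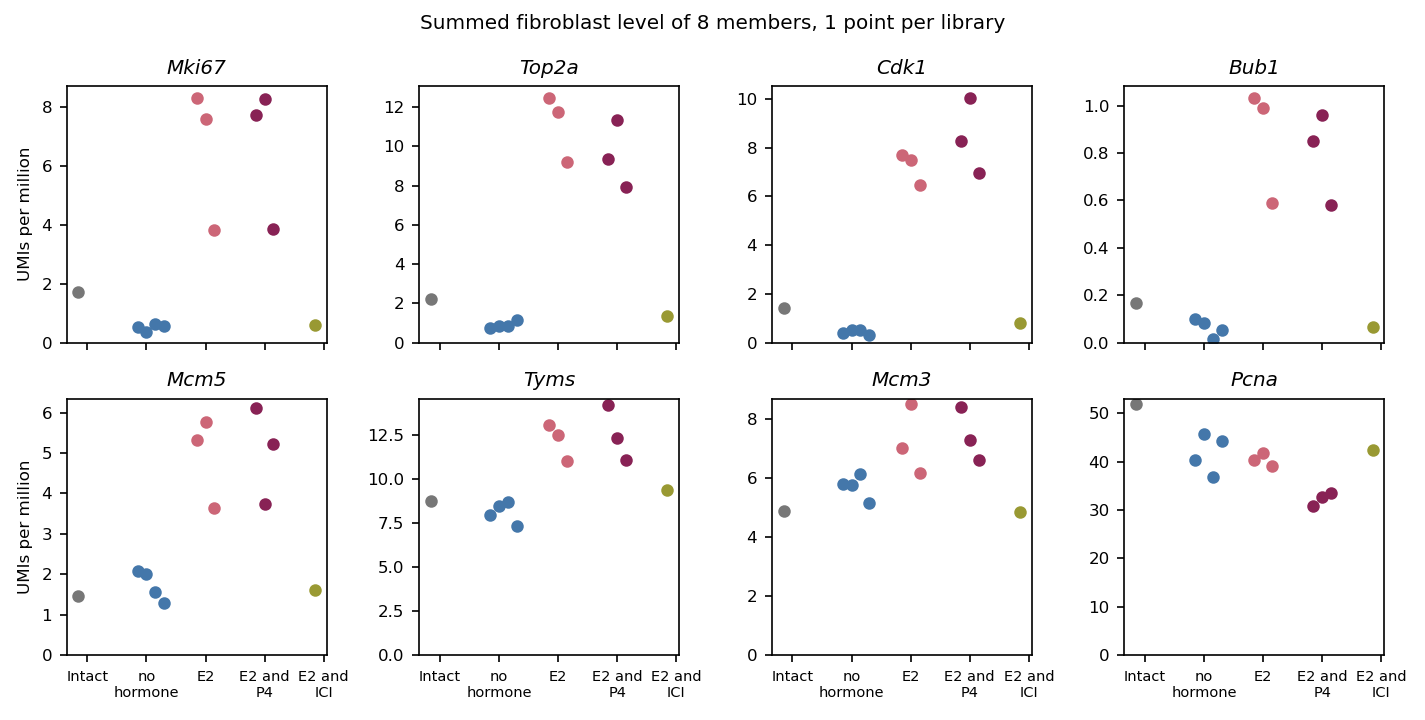
CPM (UMIs of the gene scaled to a common total, on a linear axis from 0) in the summed fibroblasts of each library, for 8 of the genes. Points are libraries, and the no hormone points include VCD_Vehicle_NormEnv. Mki67, Top2a and Cdk1 separate the 6 crossed libraries with E2 from the 3 without hormone, and Pcna does not.

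The G1/S and S genes split. Tk1, thymidine kinase, went from 0.337 to 0.706 CPM up to 3.31 to 4.84 (log2 fold change 3.102, edgeR adjusted p = 0.000822). Uhrf1, which keeps DNA methylation through replication, rose by a log2 fold change of 2.30, Mcm5 by 1.56, Rrm2 (the regulated subunit of ribonucleotide reductase) by 1.46, Mcm2 by 1.05 and the helicase cofactor Gins2 by 0.94. The E cyclin genes Ccne2 and Ccne1, which act at the entry to S phase, rose by 1.02 and 0.90, and the call of Ccne2 was lost in 8 of the 9 fits that left out 1 library. Mcm5 stood at 2.01, 1.57 and 1.29 CPM without hormone and at 3.64 to 6.11 with it. Tyms, thymidylate synthase, rose by a log2 fold change of 0.54. Pcna, the sliding clamp of the polymerase and also a DNA repair protein, was the 1 gene that fell, from 45.7, 36.9 and 44.3 CPM to 30.9 to 41.9 (log2 fold change -0.27 ± 0.07, edgeR adjusted p = 0.0365), its ranges overlapped, and the call was lost in 7 of the 9 fits that left out 1 library. It lay at 39.1 to 41.9 CPM with E2 alone and at 30.9 to 33.5 with E2 and P4.

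The 6 genes not called were all licensing and fork or nucleotide genes. Their log2 fold changes were 0.31 for Mcm3, -0.09 for Mcm4, 0.23 for Mcm6, 0.12 for Mcm7, 0.38 for Cdt1 (edgeR adjusted p = 0.056) and 0.08 for Rrm1. Rrm1, the large subunit of ribonucleotide reductase, stood at 13.8 to 18.5 CPM without hormone and 16.4 to 19.4 with it, and Mcm4 at 10.3 to 12.5 and 10.4 to 11.7. Summed over the 16, the level was 114.7 to 122.7 CPM without hormone and 134.3 to 158.2 with it, 1.22-fold higher by the means.

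**Figure D3:**
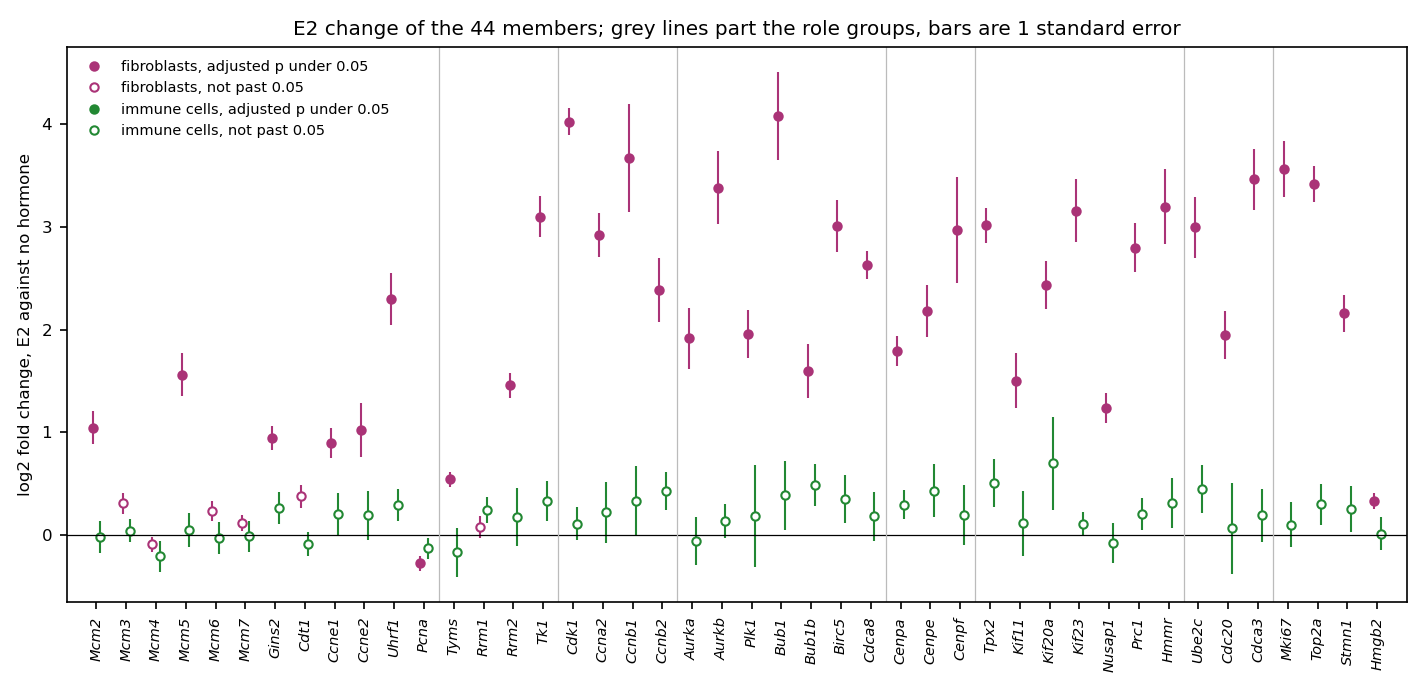
Log2 fold change with E2 (mean of E2 and E2 with P4 minus no hormone) for each of the 44 genes in summed fibroblasts and in summed immune cells, ordered by role, with bars for 1 SE and filled points for an adjusted p under 0.05. In fibroblasts all 24 mitotic genes lie above 0, and in immune cells none of the 44 was called.

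When the positive cells were left out of the fibroblast sums, 13 of the 43 genes then tested were still called, against 17.6% of all genes, 12 higher and Pcna lower (-0.39). The 12 were led by Cdk1 (log2 fold change 2.74), Aurkb (2.40), Mki67 (1.69), Cdca3 (1.53), Uhrf1 (1.51), Top2a (1.28), Tk1 (1.26) and Mcm5 (1.11). Since this setting removes cells by their Mki67 and Top2a counts, the values of those 2 genes in it are a description. Leaving both out, 11 of 41 genes were called, 10 higher and 1 lower. Under it 6 genes changed sign, none of them called, namely Kif11 (-0.41, from 1.505 with all cells), Bub1b (-0.23, from 1.60), Rrm1 (-0.19), Hmgb2 (-0.12), Plk1 (-0.10, from 1.96) and Mcm7 (-0.085).

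Panels of other cells' markers were measured in the same fibroblast sums. The 6 immune markers summed to 173.3 to 181.6 CPM without hormone and 172.9 to 201.5 with it, and the 6 epithelial markers to 42.5 to 50.4 and 29.3 to 59.7. The ranges also overlapped for the endothelial, Schwann and mural panels. Positive fibroblasts held the fibroblast panel at 37207 CPM against 38474 in the others, the immune panel at 185.0 against 186.8 and the epithelial panel at 17.2 against 43.1. A doublet score removed 6.69% of the positive and 3.59% of the other fibroblasts, and 38 of the genes remained called without the doublets.

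The 3 remaining contrasts, 1 of hormone and 2 of diet, called none of the 44 genes in fibroblasts. For P4 added to E2 (0.0462% of all genes called) the largest fitted change was that of Rrm2, 0.47 on the log2 scale (edgeR adjusted p = 0.40), and 2 of the 44 had an unadjusted p under 0.05, against 9.36% of all genes, with 0 called by DESeq2, against 0.746% of all genes. For the low diet (0.0% of all genes) the largest was Aurka at 0.35, with 0 of the 44 under 0.05 unadjusted, against 3.61% of all genes, and 0 called by DESeq2, against 0.0594%. For the high diet (0.0726% of all genes) the median was -0.25 and 38 of the 44 values were below 0, led by Cdca8 at -1.07 (edgeR adjusted p = 0.052). There 11 of the 44 had an unadjusted p under 0.05, against 20.5% of all genes, and DESeq2 called 1, Cdca8, against 5.23% of all genes, so neither count is a result about the 44. The direction was lost without the shared barcodes, where the median was 0.11, 17 of the 44 values were below 0, 21 changed sign and Cdca8 stood at -0.61 (edgeR adjusted p = 0.093). Without VCD_High_PBDE_E2 the median was -0.14 and 28 values were below 0. No direction is therefore given for the high diet. The medians for P4 and for the low diet, 0.04 and -0.03 with all cells, were 0.32 and 0.30 without the shared barcodes.

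Outside the crossed layout, Intact fibroblasts held 1.72 CPM of Mki67, 2.24 of Top2a and 1.40 of Cdk1, between the crossed libraries without and with hormone. VCD_E2_ICI, in which E2 had been given with the antagonist, held 0.609, 1.35 and 0.801, in or just above the range of the crossed libraries without hormone. Leaving out the shared barcodes, Intact held 0.302 CPM of Mki67, 0.108 of Top2a and 0.172 of Cdk1, and VCD_E2_ICI held 0.0977, 0.195 and 0.163, each below the crossed libraries without hormone, so the place of either library in the order rested on those cells. With 1 library each these values have no replicate check.

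Fibroblasts were divided by the summed level of Dpp4 and Pi16, markers of the adventitial, universal type of fibroblast, and 4427 cells lay between 0.5 and 2 times the dividing level. In Dpp4-low fibroblasts the positive share was 0.0901% to 0.225% without hormone and 1.14% to 2.31% with it, a difference of 1.43 points (SD 0.286, higher in 3 of 3, exact permutation p = 0.037, adjusted p = 0.161). In Dpp4-high fibroblasts the difference was 1.10 points (1.86, 1.22 and 0.215 at no, low and high PBDE, exact permutation p = 0.111, adjusted p = 0.361). The libraries there ran from 2.75% in VCD_E2 (32 of 1163) to 0 of 869 in VCD_High_PBDE_E2, which allows a share of up to 0.345% (3 cells of the total, a lower bound than the exact interval drawn for it), while VCD_High_PBDE had 0 of 1268. With P4 added to E2 the Dpp4-low share changed by 0.708 points (higher in 3 of 3) and the Dpp4-high share by -0.448 points (higher in 1 of 3), with exact p of 0.25 and 0.75.

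**Figure D4:**
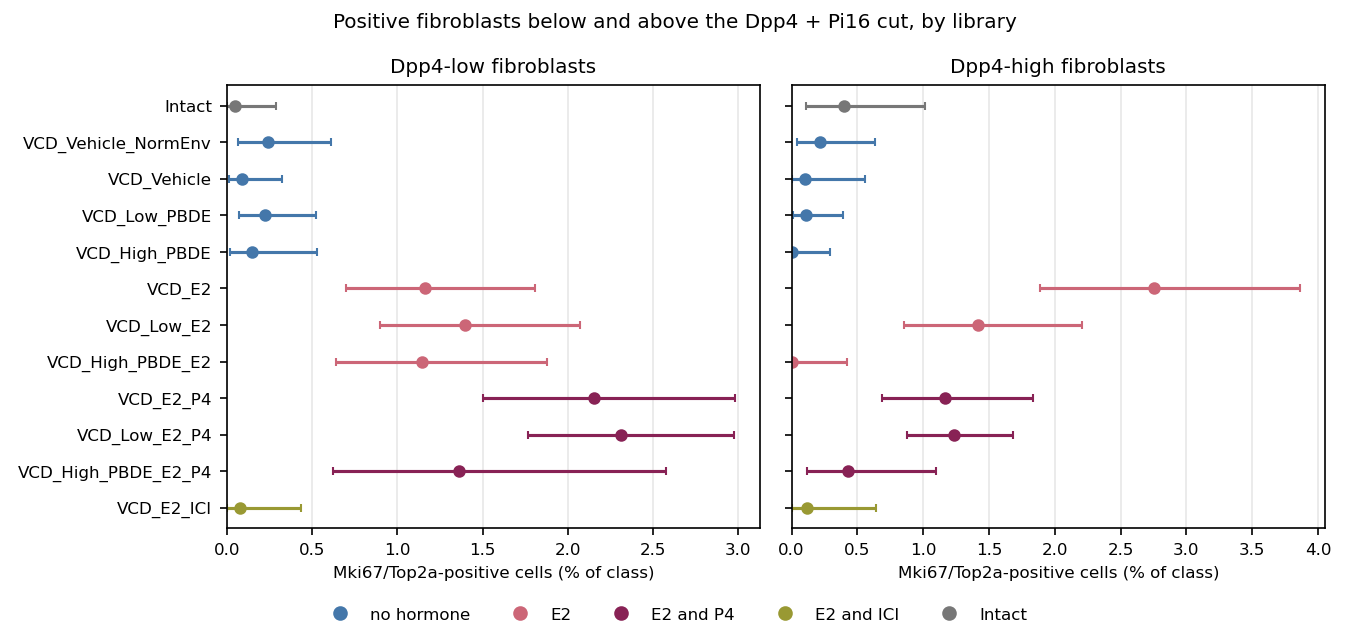
Percent of cells with at least 2 UMIs of Mki67 and Top2a together in Dpp4-low and Dpp4-high fibroblasts of each library, with exact 95% intervals for counting error. Dpp4-low fibroblasts lie between 1.14% and 2.31% in the 6 libraries with E2, and Dpp4-high fibroblasts between 0% and 2.75%.

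In summed Dpp4-low fibroblasts 39 of the 44 genes rose with E2 and 0 fell, against 13.0% of all genes called as higher. Mcm4, Mcm6, Mcm7, Cdt1 and Pcna were not called. In summed Dpp4-high fibroblasts 19 rose, against 6.54% of all genes, and 1 fell, again Pcna (-0.32). Mki67 rose in both, with log2 fold changes of 3.21 ± 0.33 in Dpp4-low and 4.49 ± 0.91 (SE) in Dpp4-high cells. The Dpp4-high value rests on few UMIs of Mki67, 4, 13 and 0 in VCD_Vehicle, VCD_Low_PBDE and VCD_High_PBDE. VCD_High_PBDE_E2 held 1 UMI, so the ranges with and without hormone overlapped. Without the shared barcodes 38 genes were called in Dpp4-low and 23 in Dpp4-high fibroblasts. The Dpp4-high count was unstable. It fell to 0 with the file-name suffix as a term and also without VCD_Low_PBDE. It was 7 without the positive cells and reached 36 without VCD_High_PBDE_E2. Shares of all genes called are not given for these settings, so the counts show only how far the number moved. Tested directly, the change in Dpp4-low minus that in Dpp4-high cells was called for 0 of the 44 genes by edgeR, against 11.4% of all genes (median 0.10, Mki67 -1.09 ± 1.29), so the number of genes called does not show that the 2 kinds of fibroblast differ. In that test 5 of the 44 had an unadjusted p under 0.05, against 28.8% of all genes, and no other tool was run. Without the shared barcodes 1 gene was called, Nusap1, whose change was higher in Dpp4-low cells (1.08 ± 0.28, edgeR adjusted p = 0.0447).

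Immune cells held a larger share of positive cells than fibroblasts, and in them the pooled range of the 6 libraries with E2 overlapped the 3 without hormone. The share was 8.87%, 7.60% and 8.47% without hormone (VCD_Vehicle, low, high), 6.30%, 7.87% and 7.95% with E2, and 11.2%, 15.0% and 9.43% with E2 and P4. The 3 libraries with E2 and P4 lay above the other 6, and E2 alone overlapped no hormone. The E2 difference, with E2 alone and E2 with P4 averaged, was 1.31 points (SD 2.20, higher in 2 of 3, exact permutation p = 0.593). When 1 library was left out, it ran from 0.042 (without VCD_Low_PBDE) to 2.49 (without VCD_Low_E2). Leaving out a library without hormone, such as VCD_Low_PBDE, removed its whole PBDE level, which then had no reference. After thinning, which left out 2100 shallower immune cells, the difference was 2.84 points (exact permutation p = 0.259). Adding P4 to E2 gave 4.49 points, 4.85, 7.13 and 1.48 at no, low and high PBDE (exact p = 0.25, the smallest possible). After thinning these were 5.63, 7.63 and -1.01, so the value at high PBDE changed sign under that setting, which also counts a cell at 1 UMI and leaves out shallow cells. Without the shared barcodes the E2 difference was 1.51 points and that of P4 5.26 points. Intact (7.53%), VCD_Vehicle_NormEnv (8.25%) and VCD_E2_ICI (5.89%) lay in or just under the same range.

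In T cells the share was 6.24 points higher with P4 added to E2 (6.96, 9.79 and 1.96, exact p = 0.25). After thinning the 3 values were 12.2, 19.8 and -7.87. In macrophages the E2 difference was -0.778 points (SD 5.93, exact permutation p = 0.778), and 5.28 points (exact permutation p = 0.037) when cells were thinned and counted at 1 or more UMIs, so no direction is given here. With P4 added to E2 the mean differences in the other immune classes ran both ways. They were 12.5 points in cells that passed several immune gates (higher in 3 of 3), -2.09 points in macrophages (higher in 1 of 3), -1.46 in dendritic cells (1 of 3), -0.0652 in B cells (1 of 3), 3.07 in NK and innate lymphoid cells (2 of 3) and 2.11 in immune cells of no narrower gate (3 of 3), with exact p from 0.25 to 1.0. Immune cells of no narrower gate showed 3.67 points with E2 (exact permutation p = 0.037, adjusted p = 0.161).

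In summed immune cells, tested across 12246 genes, none of the 44 was called in any contrast. With E2 (0.00817% of all genes called) the median was 0.19 and the largest fitted change that of the mitotic kinesin Kif20a, 0.70, with 2 of the 44 under 0.05 unadjusted, against 9.7% of all genes. With P4 (0.00817% of all genes) 42 of 44 values were above 0 with a median of 0.60, and 24 of the 44 had an unadjusted p under 0.05, against 8.19% of all genes. The largest fitted change was that of Rrm2, which was not called (log2 fold change 1.21, edgeR adjusted p = 0.58). Its level was 12.1, 16.2 and 22.1 CPM with E2, and 40.7, 44.4 and 25.2 with E2 and P4. The low diet (0.0% of all genes) and the high diet (0.00817%) each had 0 of the 44 under 0.05 unadjusted, against 5.21% and 9.55% of all genes, with Cdc20 at 0.64 and Kif20a at 0.81 as the largest changes. DESeq2 called 0 of the 44 in each of the 4 contrasts, against 0.743% (E2), 0.139% (P4), 0.0% (low diet) and 0.245% (high diet) of all genes. Mki67 was 47.7 to 68.6 CPM without hormone and 38.1 to 113.3 with it. The fibroblast panel in these sums stood at 305.5 to 507.5 CPM without and 409.4 to 888.5 with hormone, ranges that overlapped. With P4 added to E2 the panel was higher at each PBDE level, at 739.6 against 564.8 CPM with no PBDE, 888.5 against 474.4 with the low diet and 475.0 against 409.4 with the high diet, and its part in the P4 values was not tested. In summed macrophages 0 of the 37 genes tested were called with E2 (0.241% of all genes), 5 had an unadjusted p under 0.05, against 11.0% of all genes, and DESeq2 called 0, against 0.571%, with Tk1 at 2.84 the largest.

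The change with E2 in fibroblasts minus that in immune cells was higher for 27 of the 44 genes and lower for 0 (edgeR with library as a block, a fit added after seeing the data), against 1.40% of all genes called as higher. The median difference of log2 changes was 1.82, against -0.02 for all genes, led by Cdk1 (3.86), Bub1 (3.77), Mki67 (3.42) and Ccnb1 (3.33). That of Bub1 rests on few UMIs in fibroblasts without hormone, 4, 1 and 2 in VCD_Vehicle, VCD_Low_PBDE and VCD_High_PBDE. The difference between the classes is one of log2 changes between baselines far apart. Mki67 stood at a mean of 0.525 CPM in fibroblasts and 58.9 CPM in immune cells without hormone. On the scale of the share of positive cells the value was 1.24 points in fibroblasts and 1.31 points in immune cells. Both values average E2 alone and E2 with P4, and in immune cells no difference was detected. There E2 alone overlapped no hormone, and the libraries with E2 and P4 lay above. When 1 library was left out, the values ran from 1.03 to 1.52 and from 0.042 to 2.49. Leaving out a library without hormone removed its whole PBDE level from these shares. Without the shared barcodes 22 genes were higher and 0 lower, with a median of 1.28. There 31 of the 44 had an unadjusted p under 0.05 in edgeR, against 1930 of all 15283 genes tested. Bub1 then led at 3.28, with Cdk1 at 3.27, Mki67 at 2.78 and Ccnb1 at 2.77.

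Epithelial cells were few. None was positive among 7 in Intact, 10 in VCD_Vehicle, 20 in VCD_Low_PBDE, 9 in VCD_Vehicle_NormEnv, 7 in VCD_High_PBDE and 8 in VCD_E2_ICI. With E2 alone 2 of 43, 2 of 24 and 1 of 8 were positive at no, low and high PBDE. With E2 and P4 the count was 9 of 25 in VCD_E2_P4 (36.0%, exact 95% interval 18.0% to 57.5%), 5 of 11 in VCD_Low_E2_P4 (45.5%, 16.7% to 76.6%) and 0 of 2 in VCD_High_PBDE_E2_P4. The hormone difference of 17.8 points had an exact permutation p of 0.185 (adjusted 0.481), and that of P4 added to E2, 18.7 points, an exact p of 0.50. Of the 174 cells 54 carried a barcode sequence found in another library. Without them 6 of 20, 4 of 8 and 0 of 2 were positive with E2 and P4, and 1 of 29, 1 of 15 and 1 of 8 with E2 alone.

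Within a cell class, positive cells differed from the others in the rest of the list too. Mki67 and Top2a, which define the class, were not tested. All 42 other genes were higher in positive fibroblasts (log2 fold changes 2.02 to 10.2, median 6.80, largest edgeR adjusted p = 1.4e-07), against 14.7% of all genes called as higher. They were also all higher in positive immune cells (0.79 to 7.91, median 4.20, largest edgeR adjusted p = 9.8e-07), against 19.0% of all genes. VCD_Vehicle, VCD_High_PBDE and VCD_E2_ICI had under 5 positive fibroblasts and were left out of the fibroblast test. Positive cells were also deeper, with a median of 31166 UMIs against 16847 in all fibroblasts and 18758.5 against 7425 in all immune cells.

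Positive cells were chosen on Mki67 and Top2a, and the difference between the gene groups in what follows was not tested. The median mitotic gene was found in 57.4% of positive and 0.730% of other fibroblasts, and the median G1/S and S gene in 51.8% and 6.92%. In immune cells these values were 45.3% and 1.05%, and 47.3% and 8.11%. Hmmr differed most in fibroblasts, at a log2 fold change of 10.2, and Ccna2 most in immune cells, at 7.91. These largest values rest on few UMIs in the other cells, 50 of Hmmr in fibroblasts and 21 of Ccna2 in immune cells. Pcna differed least in fibroblasts (2.02) and the licensing factor gene Cdt1 least in immune cells (0.79). Cenpa was found in 34.7% of other immune cells against 70.7% of positive ones, and Kif23 in 10.7% against 46.3%.

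**Figure D5:**
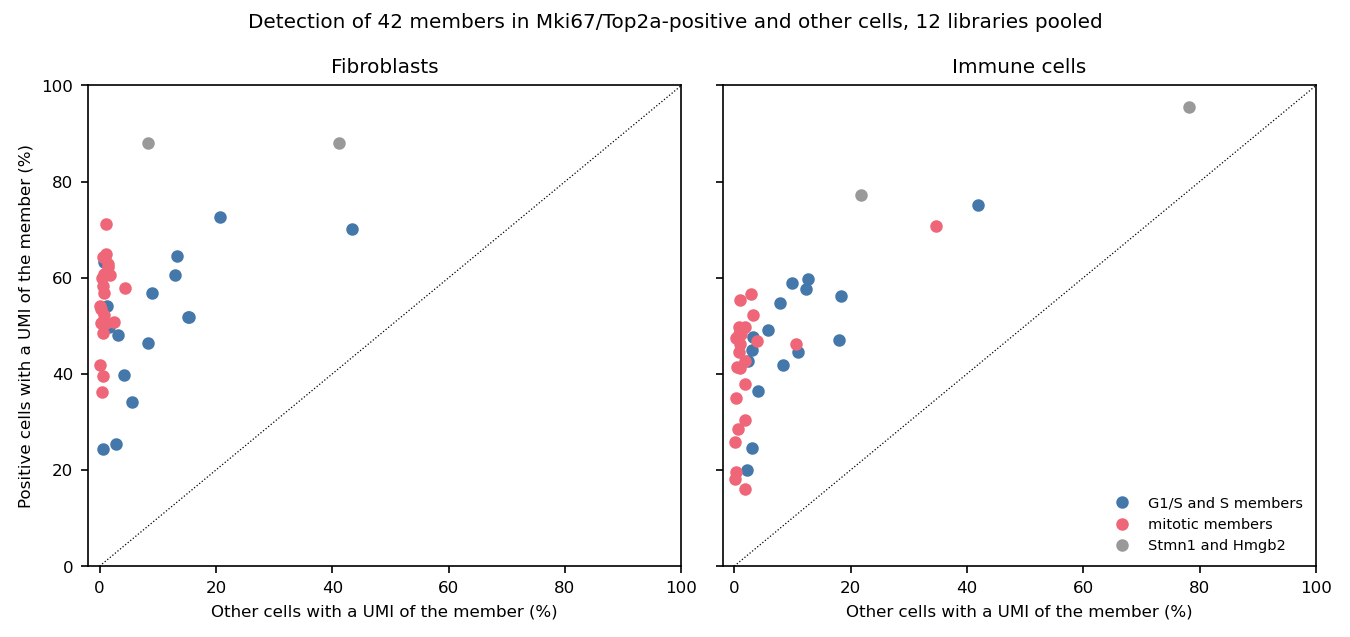
Percent of cells with at least 1 UMI of each of the 42 genes other than Mki67 and Top2a, in positive cells (vertical axis) against other cells (horizontal axis) of all 12 libraries pooled. Points are genes and the dotted line marks equal shares. In fibroblasts no mitotic gene was found in more than 4.40% of other cells, while the G1/S and S genes reached 43.5%.

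Genes of the same pathway outside the 44 were counted in the same fits, in which 19.4% of all genes were called with E2 in fibroblasts and 9.97% as higher. There 26 of 31 further mitotic genes rose and 0 fell (median 1.89), among them the condensin subunit Smc4 (0.72), whereas the securin gene Pttg1 changed by -0.08 (edgeR adjusted p = 0.42). Of 25 further replication genes 5 rose and 1 fell, the histone mRNA binder Slbp (-0.29), with the dUTPase gene Dut at 0.18 (adjusted p = 0.18 in edgeR). Of 11 G1 genes 5 rose, among them Ccnd2, which encodes cyclin D2 (0.30), and 1 fell, Myc (-0.41). Of 10 genes of CDK inhibitors and pocket proteins 2 rose and 2 fell, with Cdkn1a, which encodes p21, at -1.02 (edgeR adjusted p = 0.00139) and Cdkn1c, which encodes p57, at 0.64 (adjusted p = 0.156 in edgeR). The counts of the replication, G1 and inhibitor lists are given as a description, with nothing particular to any of these lists read from them. The G1 and inhibitor lists are also short. In immune cells 0 genes of these 4 lists were called with E2, and 7 of their 77 genes had an unadjusted p under 0.05, a share near the 9.7% of all genes.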

How the data were processed

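Chromium 3′ (v3) libraries were processed by the authors with Cell Ranger 3.1.0 on mm10, and the deposited values are raw UMI counts per gene and cell barcode. The members and gene lists were chosen with earlier results of these data known. Cells with at least 500 genes, 1000 UMIs and at most 5% mitochondrial UMIs were kept, and assigned by marker panels (UMIs per 10000) that hold no cell cycle gene. Trac, Trbc2, Ighm and Iglc2 were not used. Counts were summed per library and class (at least 20 cells) and tested with edgeR 4.0.16 (quasi-likelihood, TMM, additive in hormone and PBDE, 4 residual degrees of freedom, Benjamini-Hochberg over all genes) in R 4.3.3. E2 denotes the mean of E2 and E2 with P4 minus no hormone. Shares were compared by exact tests. For E2 the hormone labels were permuted within PBDE level. For P4 and the diets the signs of the 3 paired differences were flipped. Exact intervals used scipy 1.17.1. Positive cells were tested against others with library as a block. On simulated counts the E2 fit in fibroblasts (15152 genes) recovered 82% of the changed genes, and that in immune cells (12246 genes) 79.5%. Alternatives included DESeq2 1.42.0, no filter on low counts, other gates, doublet removal, thinning to 5000 UMIs, a term for the file-name suffix and leaving out each library. Named were Mki67, Top2a, the 2 members of each role with most UMIs, up to 10 called members of each contrast by size of change, and otherwise its largest fitted change. Other members are named for completeness, chosen after their values were seen.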

Additional observations from a re-analysis of the deposited data

Results flagged for a closer look

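The change of the cell cycle genes with E2 differed between cell classes by a test of the difference itself. For 27 of the 44 genes the log2 change with E2 was higher in fibroblasts than in immune cells, and for 0 it was lower (edgeR with library as a block, adjusted p under 0.05, 4 residual degrees of freedom). Of all genes tested 1.40% were called as higher. Cdk1 (3.86) and Bub1 (3.77) showed the largest differences of log2 change. That of Bub1 rests on few UMIs in fibroblasts without hormone, 4, 1 and 2 in VCD_Vehicle, VCD_Low_PBDE and VCD_High_PBDE. The difference between the classes is one of log2 changes between baselines far apart. Mki67 stood at a mean of 0.525 CPM in fibroblasts and 58.9 CPM in immune cells without hormone. The share of positive cells was 1.24 points higher with E2 in fibroblasts, and in immune cells the value of 1.31 points was no detected difference. Both values average E2 alone and E2 with P4, and in immune cells E2 alone overlapped no hormone. When 1 library was left out, the values ran from 1.03 to 1.52 and from 0.042 to 2.49. Leaving out a library without hormone removed its whole PBDE level from these shares. Without the barcodes that libraries share 22 genes were higher and 0 lower. There 31 of the 44 had an unadjusted p under 0.05 in edgeR, against 1930 of all 15283 genes tested. Cdk1 then stood at 3.27 and Bub1 at 3.28, and the median of the 44 was 1.28 in place of 1.82. The fit was added after the data had been seen.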

How the results depend on the processing

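No paired analysis was possible because each group held 1 library, whose replicate number is only a name and pairs nothing, beyond the matching of libraries by PBDE level or hormone state that the tests already use. With E2 in fibroblasts, 13 genes were called without the positive cells in place of 38, 33 with the file-name suffix as a term and 33 to 38 when 1 library was left out. In Dpp4-high fibroblasts the count of 20 (12.5% of all genes called) became 31 with DESeq2 (12.3% of all genes called). It was 7 without positive cells, 0 with the file-name suffix as a term and 0 to 36 when 1 library was left out (0 without VCD_Low_PBDE, 3 without VCD_Vehicle, 5 without VCD_Low_E2 or VCD_High_PBDE, 7 without VCD_Low_E2_P4, 8 without VCD_E2, 13 without VCD_High_PBDE_E2_P4, 36 without VCD_High_PBDE_E2). In Dpp4-low fibroblasts the count was 13 without positive cells and 34 to 39 when 1 library was left out. Where no share of all genes is given, a count shows only how far the number moved. For the high diet in fibroblasts 1 gene was called with DESeq2 and 1 with no filter on low counts, for P4 in immune cells 1 with no filter, and for E2 in macrophages 5 with no filter and 0 to 1 when 1 library was left out (1 without VCD_E2). The share of positive macrophages changed sign, to 2.41 points at 1 or more UMIs, 1.22 at 3 or more, 5.28 after thinning and 4.69 with at least 5 mitotic UMIs, and ran from -3.67 to 2.25 when 1 library was left out. In fibroblasts it kept its sign, from 1.03 to 1.52 when 1 library was left out, and in immune cells it ran from 0.042 to 2.49. For all of these shares, leaving out a library without hormone removed its whole PBDE level. Without positive cells 6 genes changed sign, Kif11 (-0.41), Bub1b (-0.23), Rrm1 (-0.19), Hmgb2 (-0.12), Plk1 (-0.10) and Mcm7 (-0.085). Without VCD_Vehicle Rrm1 and Mcm4 did so, at -0.076 to 0.16 and -0.15 to 0.0049 when 1 library was left out. The calls of Ccne2, Pcna and Hmgb2 were lost in 8, 7 and 6 of the 9 fits that left out 1 library. Without shared barcodes the E2 change differed between Dpp4-low and Dpp4-high fibroblasts for 1 gene, Nusap1, in place of 0. Causes were not tested. Dropping shared barcodes left the E2 count in fibroblasts at 38 and turned the median for the high diet from -0.25 to 0.11. The 174 epithelial cells and the 42 to 128 macrophages per library are limited by their number.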
